A study of Mus musculus with 17 samples.

Results

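The 37 genes described here encode the transcription factor NRF2 (gene Nfe2l2) and its partners, the enzymes that make and recycle glutathione, the thioredoxin and peroxiredoxin system, glutathione peroxidases, catalase, superoxide dismutases, 4 enzymes of the pentose phosphate pathway, and oxidoreductases, haem oxygenase and metallothioneins that are commonly followed beside them. They were chosen by gene symbol as a set of NRF2 target, antioxidant and NADPH supply genes, and all 37 were found among the 52545 genes of the deposited table and passed the filter on low values. Expression was measured by RNA-seq, as counts per gene that the authors normalized between libraries, in non-tumorous liver from male C57BL/6J mice that were 32 weeks old. Of the 17 mice, 5 ate a regular diet and had no treatment. The other 12 received diethylnitrosamine (DEN, a liver carcinogen) once in week 1 at 100 mg/kg and were fed CDA-HFD, a high-fat diet lacking choline with its protein given as defined amino acids, which produces steatohepatitis and fibrosis. Of these, 6 (vehicle) were injected intraperitoneally with phosphate-buffered saline once weekly for 16 weeks, and 6 (CLDN1 mAb) with 500 µg of a monoclonal antibody to claudin-1, which is a protein of tight junctions, on the same schedule. The carcinogen, the diet and the injections separate the regular diet mice from both other groups together, so their contributions cannot be told apart. The library codes, whose meaning is not given, separate the same mice. Each library is bulk RNA from a piece of liver, in which fewer cells of a type and less RNA per cell cannot be told apart.

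NRF2 is held in the cytosol by KEAP1, which presents it to a ubiquitin ligase for degradation. Electrophiles and oxidants modify cysteines of KEAP1, and the autophagy receptor p62 (Sqstm1) can also compete for KEAP1, so that NRF2 enters the nucleus, pairs with a small MAF protein and binds antioxidant response elements. Its classical targets make glutathione, reduce quinones, regenerate thioredoxin and supply NADPH, the reductant that glutathione reductase and thioredoxin reductase both spend. Metallothioneins bind zinc and copper and are induced through the metal-sensing factor MTF1, which binds metal response elements, and by glucocorticoids and inflammatory cytokines. In liver, hepatocytes hold large amounts of catalase, glutathione peroxidase 1 and superoxide dismutase, while phagocytes carry the NADPH oxidase that makes superoxide.

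Because NRF2 and MTF1 act through short promoter elements, the 250 bases before each transcription start were searched on both strands for the antioxidant response element core TGACNNNGC and the metal response element cores TGCACNC and TGCGCNC, in the RefSeq promoter table of build GRCm38.p6. It held 32 of the 37 genes. Sod3, Gclc, Gsr, Prdx6 and Hmox1 had no entry. The 32 genes had 41 windows, since a gene can have several starts. The antioxidant core was present in a window of 8 genes (G6pdx, Gclm, Ggt1, Mt2, Nfe2l2, Prdx1, Sod1 and Txnrd1). That is 25% of the 32, beside 11.52% of all genes in the table (10.16% of all 32851 windows). The metal core was present in 6 genes (G6pdx, Gclm, Mt1, Mt2, Pgd and Srxn1), or 18.75%, beside 23.76% of all genes (21.41% of all windows). A match is a run of letters and not a measured binding site, and its absence from this window says nothing about elements elsewhere. The sites below show the antioxidant core in capitals with 10 bases on each side, on the strand of the gene and 5′ to 3′, for genes that rose with vehicle (G6pdx, Mt2, Nfe2l2 and 1 of the 2 Ggt1 matches), fell (Sod1) or passed in neither direction (Gclm, Prdx1 and Txnrd1). Where the core lies on the opposite strand it is printed as its reverse complement, beginning with GC and ending with GTCA.
G6pdx chrX:74428919-74428947, minus strand: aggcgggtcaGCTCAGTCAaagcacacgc
Mt2 chr8:94172529-94172557, plus strand: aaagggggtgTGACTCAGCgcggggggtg
Nfe2l2 chr2:75704885-75704913, minus strand: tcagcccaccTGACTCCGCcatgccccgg
Ggt1 chr10:75571467-75571495, plus strand: gtcacaagccTGACGCTGCgcctccttgc
Sod1 chr16:90220696-90220724, plus strand: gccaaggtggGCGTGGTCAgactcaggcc
Gclm chr3:122245413-122245441, plus strand: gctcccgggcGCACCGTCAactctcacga
Prdx1 chr4:116685456-116685484, plus strand: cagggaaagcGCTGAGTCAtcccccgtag
Txnrd1 chr10:82859104-82859132, plus strand: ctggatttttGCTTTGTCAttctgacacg
The G6pdx site lies inside an exon of a longer annotated G6pdx transcript, and the Mt2 and Nfe2l2 sites lie in exons annotated to the noncoding genes Gm45774 and E030042O20Rik. Genes of all 3 outcomes thus carried a match.

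The metallothionein windows are shown whole, since Mt1 and Mt2 stand next to each other on chromosome 8 and rose together. Capitals mark the metal response cores, of which the Mt1 window held 1 and the Mt2 window 3, the last of these on the opposite strand, where it reads GTGTGCA. The last 7 bases of the Mt1 window lie in the annotated Mt1 exon, and the Mt2 window lies in an exon of Gm45774. The GENCODE start of Mt2, 94172664, lies beyond the end of its window, and elements downstream of either table start were outside the search.
Mt1 chr8:94178839-94179088, plus strand: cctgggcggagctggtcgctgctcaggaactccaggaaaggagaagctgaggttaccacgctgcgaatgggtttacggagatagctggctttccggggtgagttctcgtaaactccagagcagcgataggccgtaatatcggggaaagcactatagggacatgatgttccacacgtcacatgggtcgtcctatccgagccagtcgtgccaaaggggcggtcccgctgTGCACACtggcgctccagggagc
Mt2 chr8:94172368-94172617, plus strand: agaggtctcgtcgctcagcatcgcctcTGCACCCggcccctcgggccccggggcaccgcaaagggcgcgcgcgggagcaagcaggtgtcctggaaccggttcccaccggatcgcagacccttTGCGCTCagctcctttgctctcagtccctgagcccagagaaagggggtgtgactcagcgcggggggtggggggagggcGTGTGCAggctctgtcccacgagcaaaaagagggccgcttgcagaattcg

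Deposited totals, which are normalized, ran from 48.2 to 74.6 M in the regular diet libraries, from 29.6 to 42.1 M with vehicle and from 35.4 to 42.8 M with CLDN1 mAb. In each library 97.8 to 98.3% of low values fell on whole multiples of 1 step, and dividing the totals by that step put the depth at about 30.4 to 55.0 M fragments with regular diet, 36 to 59.5 M with vehicle and 27.7 to 55.6 M with CLDN1 mAb. Regular diet mouse 1 stood apart. Genes with under 1000 bases of exon were higher in it than genes with over 4000 bases by 1.23 on the log2 scale relative to its group mates, while this difference lay between -0.27 and 0.40 in the other 16 libraries. That library was the highest of the 5 for 26 of the 37 genes and the lowest for 8. Its difference from the mean of the other 4 had a median of 1.57 on the log2 scale over the 11 listed genes with under 2 kb of exon, all of them above 0, and of 0.54 over the 26 longer ones, of which 18 were above 0. Vehicle mouse 4 stood apart in a few genes, given with each below. For the 37 genes, calls that depend on either library are given with and without it. Leaving out both together was chosen after seeing the data. The hepatocyte markers were the most abundant of the marker lists in every group, although albumin (Alb) is listed at 0 in all 17 libraries, which can be a failed estimate.

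**Figure D1:**
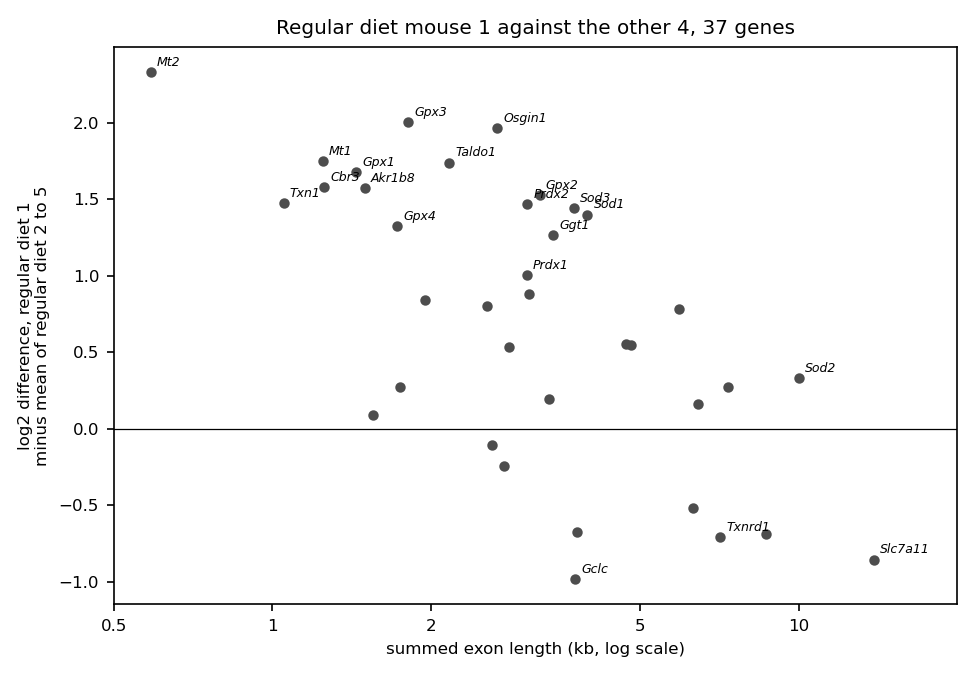
Log2 difference between regular diet mouse 1 and the mean of regular diet mice 2 to 5 (vertical axis) against the summed exon length in kb (horizontal log axis) for each of the 37 genes. Short genes such as Mt2 sat highest, and Slc7a11, Gclc and Txnrd1 sat below 0.

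Between vehicle and regular diet mice, 14 of the 37 genes rose and 9 fell (limma-trend on log2 of the normalized count plus 1, adjusted p under 0.05 over 18624 genes tested), against a background of 50.5% of all genes called, 29.8% higher and 20.7% lower. The 14 were 37.8% of the list and the 9 were 24.3%. The risers were Nfe2l2, Slc7a11, Ggt1, Srxn1, Gpx2, Gpx3, G6pdx, Pgd, Nqo1, Cbr3, Akr1b8, Hmox1, Mt1 and Mt2, and each rose by at least 2-fold except Nfe2l2. Ggt1 and Gpx2 reached 10 in only 1 and 2 of the 5 regular diet mice, so they passed the filter on low values through the diseased mice, where they are high, and had to differ. Without them 12 of 35 genes rose, 11 of these by at least 2-fold. Of all genes tested, 23.4% rose by at least 2-fold, against 13 of the 37, and 10.3% fell by at least 2-fold, against 6 of the 37. The genes that fell were Keap1, Gclc, Prdx6, Gpx1, Cat, Sod1, Sod2, Ephx1 and Aox1. The median log2 fold change was 0.04 over the 37 genes and 0.04 over all genes tested. Of the 37 genes, 14 had every vehicle mouse above every regular diet mouse, beside 19.1% of all genes tested. These were the 14 risers, with Ggt1 and Gpx2 among them. In 5 of the 37 (Keap1, Prdx6, Cat, Sod1 and Sod2), all among the 9 that fell, every vehicle mouse lay below, beside 10.5%. Over all genes tested 3557 lay wholly above, where 5547 were called higher, and 1960 wholly below, where 3853 were called lower.

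The scaling of the libraries moved the balance of the list but ended no call among the 14 risers. With the same total in every library 23 of the 37 genes were called higher and 4 lower, and with quantile normalization 20 and 5. Over all genes those scalings called 9502 higher and 1259 lower, and 4447 higher and 5223 lower, against 5547 and 3853 as deposited. The median log2 fold change over all genes was 0.65 with the same total, where that of the 37 was 0.66, and -0.13 with quantile normalization, where that of the 37 was 0.72. Size factors from the median of ratios gave 14 higher and 10 lower, beside 28.5% and 23.2% of all genes. Ggt1 and Gpx2 kept their calls wherever they were tested, which adds no support because they had to differ. The other 12 risers kept their direction and call in every alternative, and of the 9 that fell Cat, Sod1 and Sod2 did. The other 6 lost the call or changed sign under at least 1 scaling, as given with each gene. Without regular diet mouse 1, 17 of the 37 were called higher and 11 lower, beside 32.1% and 25.4% of all genes. Without both libraries that stood apart the counts were 16 and 11, beside 30.1% and 23.4%.

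**Figure D2:**
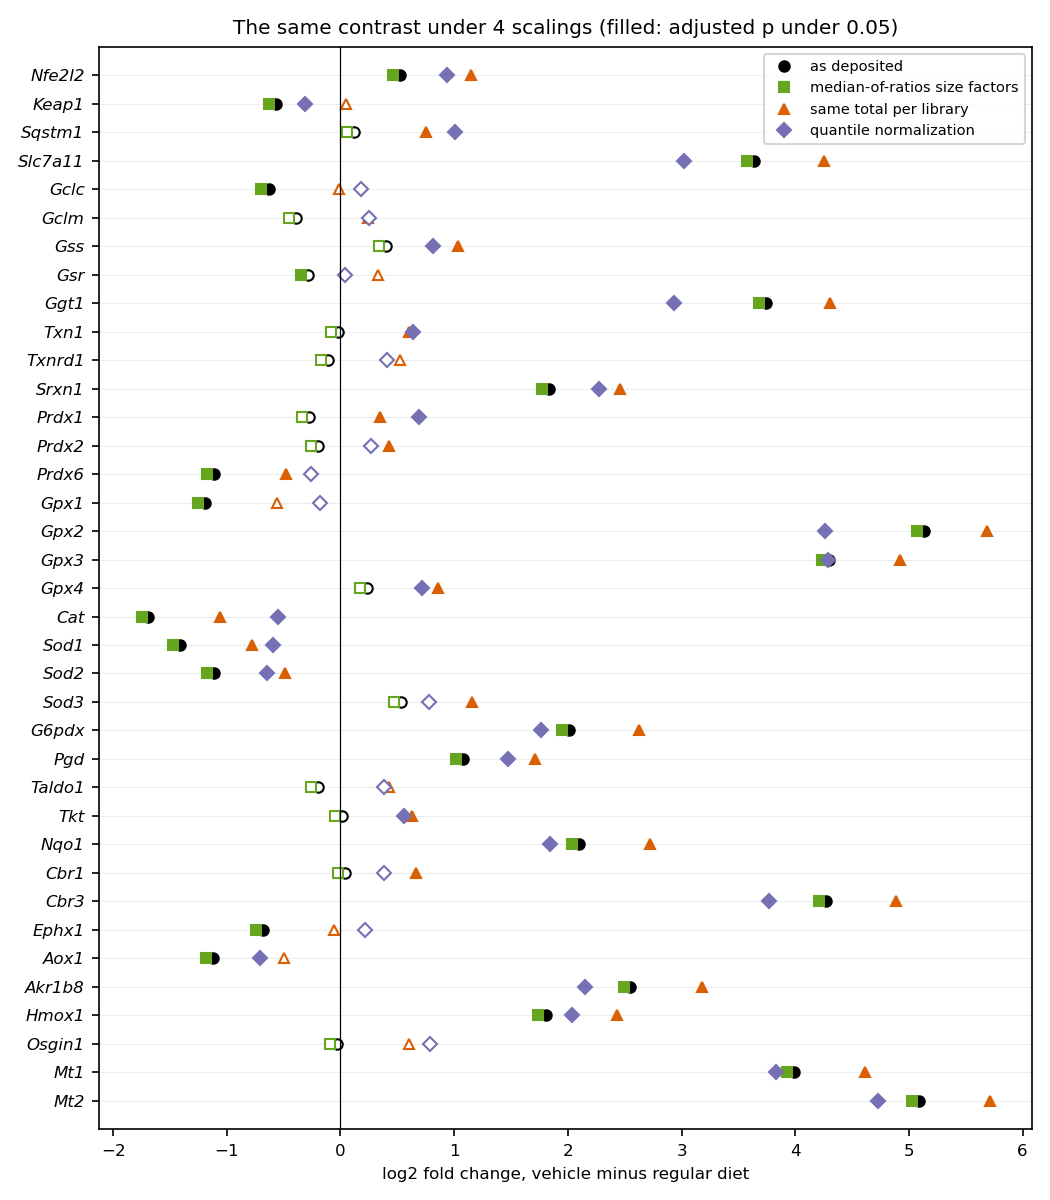
Log2 fold change between vehicle and regular diet mice (horizontal axis) for each of the 37 genes under 4 scalings, filled where the adjusted p was under 0.05 and open where not. Nqo1, Srxn1, Mt1 and Mt2 stay right of 0 and Cat, Sod1 and Sod2 left of 0 under all 4. Keap1, Gclc, Gclm, Gsr, Txn1, Txnrd1, Prdx1, Prdx2, Taldo1, Tkt, Cbr1, Ephx1 and Osgin1 change side.

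**Figure D3:**
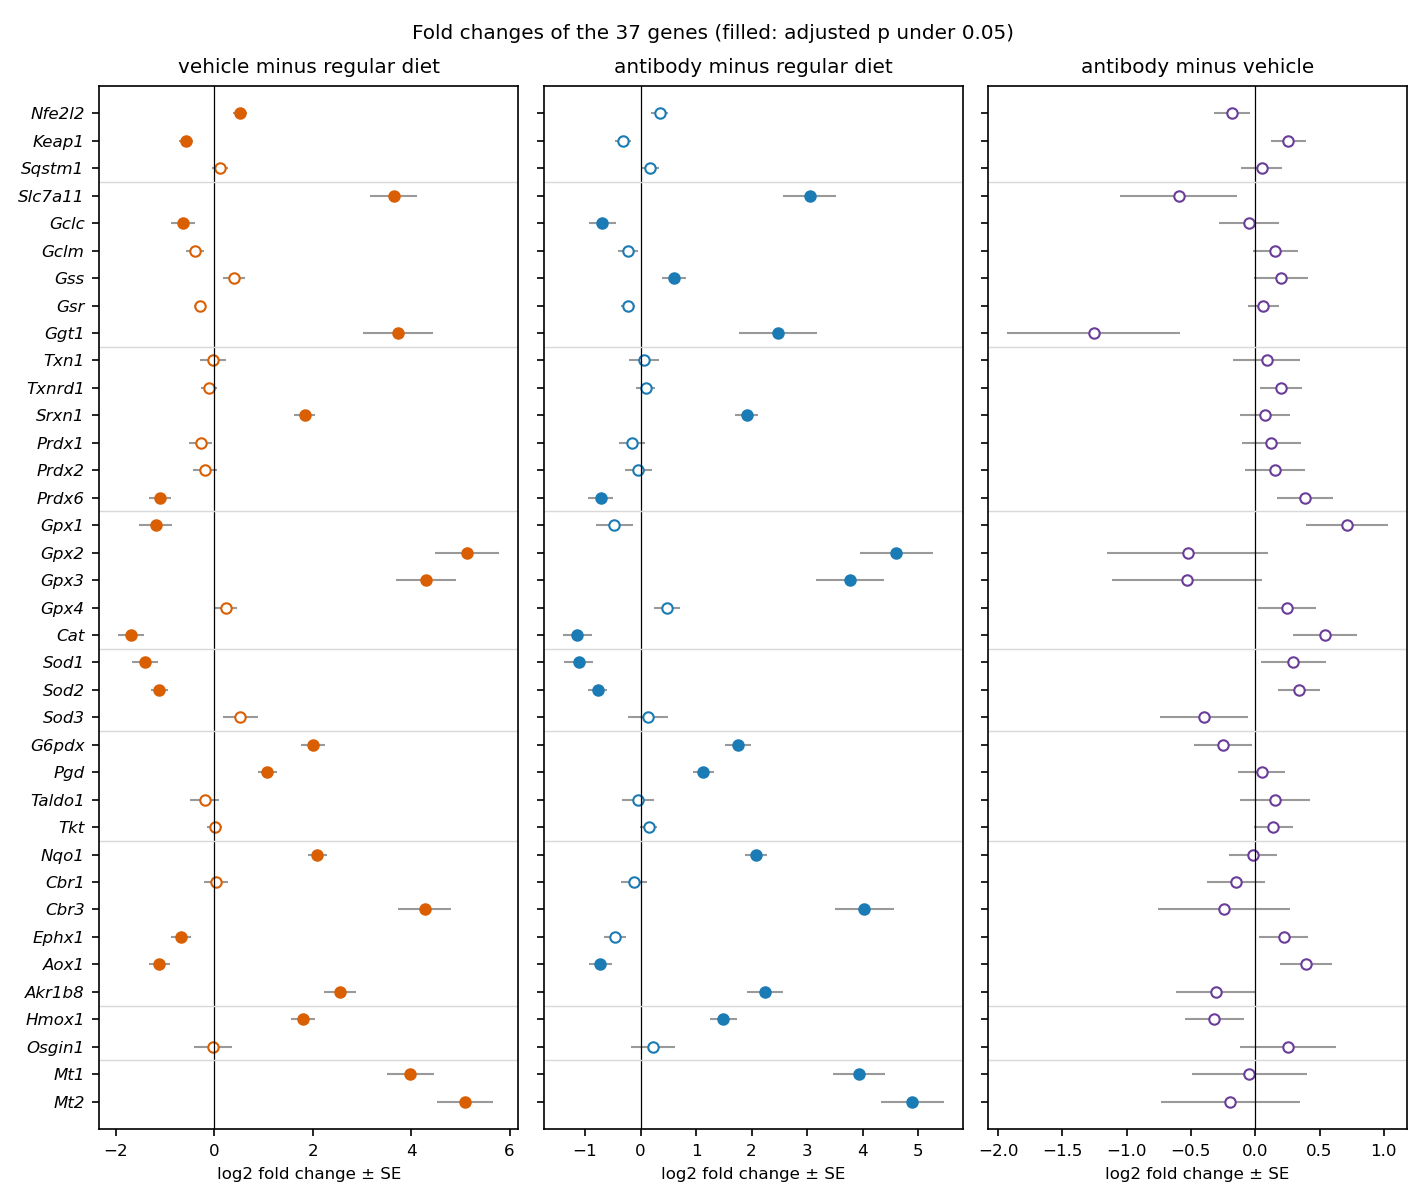
Log2 fold changes with their standard errors for the 37 genes, ordered by role, in vehicle against regular diet mice (left), CLDN1 mAb against regular diet mice (middle) and CLDN1 mAb against vehicle mice (right, on a narrower axis); filled points had an adjusted p under 0.05. The left and middle panels share the 5 regular diet libraries, and no point in the right panel is filled.

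As deposited, the log2 fold changes of the 3 regulators with vehicle lay between -0.57 and 0.52. Nfe2l2 (chr2:75675513-75704641) had normalized counts of 2979.8, 4789, 4637, 4398 and 5295 in regular diet mice 1 to 5, 5472 to 8240.1 (median 6129) with vehicle and 4956 to 6285 (median 5526) with CLDN1 mAb. Every vehicle mouse lay above every regular diet mouse (log2 fold change 0.52, SE 0.15, adjusted p = 0.00638), and the log2 fold change was 1.15 with the same total and 0.94 with quantile normalization. Vehicle mouse 1 was highest at 8240.1. Keap1, the NRF2 inhibitor, read 4314, 2951, 2959, 3056 and 2800.2 in the regular diet mice and 1809.6 to 2705 (median 2071) with vehicle, without overlap (log2 fold change -0.57, SE 0.14, adjusted p = 0.00243). That difference was 0.05 (adjusted p = 0.765) with the same total in every library, and 10.9% of the Keap1 exon bases are shared with an antisense transcript. The Nfe2l2 to Keap1 ratio within a library, which no constant factor per library alters, was 0.691 to 1.89 with regular diet, 2.1 to 4.55 with vehicle and 1.76 to 2.89 with CLDN1 mAb. This and the other ratios below were chosen after the values were seen and were not tested. The vehicle range of this ratio lay above that of the regular diet mice, and the CLDN1 mAb range overlapped both. Sqstm1 averaged 26549.7 ± 1974 (SD, n = 5) with regular diet and 29232 ± 5585 (SD, n = 6) with vehicle and was not called (log2 fold change 0.12, SE 0.17, adjusted p = 0.58); 17.3% of its exon bases overlap Mrnip on the other strand. It was called higher at 0.75 with the same total, and with quantile normalization at 1.01.

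Among 9 partners and further regulators of NRF2, 3 rose (33.3%) and 2 fell (22.2%), beside 29.8% and 20.7% of all genes. The small MAF genes Maff, at a log2 fold change of 2.27 (adjusted p = 1.08e-06), and Mafk, at 0.85 (adjusted p = 0.00222), rose, as did the ubiquitin ligase gene Trim16 at 3.30 (adjusted p = 7.83e-06). The ligase components Btrc, at -0.41 (adjusted p = 0.00596), and Cul3, at -0.32 (adjusted p = 0.0404), fell; CUL3 is the scaffold of the ligase that KEAP1 recruits. Neither was called with the same total (0.21 for Btrc and 0.31 for Cul3), and with quantile normalization Cul3 was at -0.03. Of 16 other genes reported as NRF2 targets, 5 rose (31.2%) and 2 fell (12.5%), against the same shares of all genes. The prostaglandin reductase gene Ptgr1 rose by 1.87, the aldose reductase gene Akr1b3 by 1.79 and the exporter gene Abcc4 by 2.52 on the log2 scale, while Nqo2 had a log2 fold change of -1.43 and the exporter gene Abcc3 -0.92. Scaled to the same total, 10 of the 16 were called higher and 1 lower, beside 50.4% and 6.67% of all genes, and Abcc3 was at -0.29 and not called.

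In glutathione synthesis the cystine importer rose and the rate-limiting ligase did not. Slc7a11, which brings in cystine for glutathione, had normalized counts of 19.6, 38.1, 36.8, 24.8 and 50.4 in the regular diet mice, 164 to 2153 (median 363) with vehicle and 214 to 381 (median 261) with CLDN1 mAb. No vehicle or CLDN1 mAb mouse reached down to the regular diet range (log2 fold change 3.64, SE 0.48, adjusted p = 6.15e-06, vehicle against regular diet). Vehicle mouse 4 held the highest value, 2153 against 530.4 in the next, and without both libraries that stood apart the log2 fold change was 2.99. A short stretch of its exons is near-identical to tubulin genes such as Tuba1b, so that part of its reads is uncertain: the summed mean level of the copies was 2944 against 331 for Slc7a11. Its partner chain Slc3a2 also rose (log2 fold change 0.94, adjusted p = 0.00139).

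Gclc, the catalytic subunit of glutamate-cysteine ligase, read 13123, 31910.0, 21000.3, 25347 and 26529.5 in the regular diet mice, 9427 to 22154 (median 14838) with vehicle and 9523 to 18096 (median 14707) with CLDN1 mAb. Regular diet mouse 1 lay inside the vehicle range, and the other 4 lay above every vehicle mouse except mouse 1, which exceeded regular diet mouse 3. Its log2 fold change was -0.63 (SE 0.25, adjusted p = 0.0388), and this call was the least steady of the 9. It was kept in 17 of 29 alternatives and lost without any 1 of regular diet mice 2 to 5 or of vehicle mice 3, 5 and 6. The value was -0.01 with the same total and 0.18 with quantile normalization. Gclm, the modifier subunit, was not called (log2 fold change -0.39, SE 0.18, adjusted p = 0.0863) although 4 of the 5 regular diet mice lay between 13786 and 14351 and 5 of the 6 vehicle mice between 7404 and 11863. Without regular diet mouse 1 it was called lower (-0.49, adjusted p = 0.0256), and likewise without vehicle mouse 1 (-0.53, adjusted p = 0.00743). A short stretch of Gclm is near-identical to Ppia and several pseudogenes, whose summed mean level of 15274 exceeded the 11490.4 of Gclm, so that part of its reads is uncertain too.

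Glutathione synthetase (Gss) and glutathione reductase (Gsr) were not called with vehicle, at 0.40 (SE 0.22) and -0.29 (SE 0.13) on the log2 scale. Without regular diet mouse 1 both passed, Gss higher at 0.56 (adjusted p = 0.0293) and Gsr lower at -0.34 (adjusted p = 0.028). Gss was also called higher with the same total (1.03, adjusted p = 1.21e-05) and with quantile normalization (0.81, adjusted p = 0.00059). Gsr was also called lower with median-of-ratios size factors (-0.35, adjusted p = 0.0292) and without vehicle mouse 5 (-0.34, adjusted p = 0.0398). Gss shares 15.4% of its exon bases with genes on the other strand. Ggt1, the gamma-glutamyl transferase that breaks down extracellular glutathione and whose protein is a serum marker of bile duct and liver disease, was mostly under the filter in regular diet mice, at 12.3, 3.94, 2.63, 4.13 and 9.17, which is about 3 to 6 fragments per library. It read 17.5 to 1087 (median 68.5) with vehicle and 25 to 47.3 (median 37.6) with CLDN1 mAb, with no overlap of either with the regular diet mice (log2 fold change 3.74, SE 0.71, adjusted p = 0.00027, vehicle against regular diet). Vehicle mouse 4 at 1087 was far above the next value of 107, and without it the log2 fold change was 3.01. Ggt1 passed the filter through the diseased mice and had to differ, so its adjusted p adds no support.

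Of 18 further glutathione genes 6 rose (33.3%) and 7 fell (38.9%), beside 29.8% and 20.7% of all genes. The glutathione S-transferase genes Gstm3 (log2 fold change 2.41, adjusted p = 5.86e-06) and Mgst2 (2.58, adjusted p = 1.31e-06) rose, beside Slc3a2. The glyoxalases Glo1 (-2.20, adjusted p = 2.61e-06) and Hagh (-1.98, adjusted p = 5.81e-05), which clear methylglyoxal with glutathione, and the transferase Gstp1 (-2.29, adjusted p = 3.36e-05) fell. The 6 genes named here kept their calls under every scaling tried.

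In the thioredoxin system 1 of 6 genes rose and 1 fell (16.7% each), beside 29.8% and 20.7% of all genes. Srxn1, sulfiredoxin, which repairs over-oxidized peroxiredoxins, read 3611, 2699.5, 2477, 2605 and 2223 in the regular diet mice, 6597 to 13683 (median 10215) with vehicle and 6493 to 13006 (median 10701) with CLDN1 mAb. All 12 diseased mice lay above all 5 regular diet mice (log2 fold change 1.83, SE 0.21, adjusted p = 1.1e-06, vehicle against regular diet). Peroxiredoxin 1, its substrate, did not pass (Prdx1, log2 fold change -0.28, SE 0.24, adjusted p = 0.359). Within each library the Srxn1 to Prdx1 ratio was 0.0371 to 0.0545 with regular diet, 0.185 to 0.303 with vehicle and 0.159 to 0.275 with CLDN1 mAb, so the diseased ranges lay wholly above the regular diet range.

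Thioredoxin (Txn1, -0.02, SE 0.27), thioredoxin reductase 1 (Txnrd1, -0.11, SE 0.17) and Prdx2 (-0.20, SE 0.24) did not pass with vehicle. Regular diet mouse 1 was the highest library for Txn1 (23402, next 9021), Prdx1 (97438, next 51068) and Prdx2 (13167, next 5176), and the lowest for Txnrd1 (5346). Without that mouse Txn1 was at 0.27, Prdx1 at -0.08, Prdx2 at 0.10 and Txnrd1 at -0.25, none of them called. With the same total Txn1 was at 0.60, Prdx1 at 0.35 and Prdx2 at 0.43, each called higher, and Txnrd1 was at 0.52 (adjusted p = 0.0513). Prdx6, a peroxiredoxin that also reduces phospholipid peroxides, fell from 30465 ± 6086 (SD, n = 5) to 14559 ± 4374 (SD, n = 6), with every vehicle mouse below every regular diet mouse (log2 fold change -1.11, SE 0.23, adjusted p = 0.000562). With the same total it was at -0.48 and still called, and with quantile normalization it was at -0.26 and not called.

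Of 19 other genes of thiol and peroxide defence, 3 rose (15.8%) and 8 fell (42.1%), beside 29.8% and 20.7% of all genes. The endoplasmic reticulum peroxidases Gpx7 (log2 fold change 2.98, adjusted p = 1.89e-06) and Gpx8 (2.37, adjusted p = 3.43e-05) and the sestrin gene Sesn1 (0.62, adjusted p = 0.0373) rose. Thioredoxin reductases Txnrd3 (-0.79, adjusted p = 0.000143) and Txnrd2 (-1.02, adjusted p = 0.00115) fell, as did Ccs (-1.28, adjusted p = 0.00228), the copper chaperone of superoxide dismutase 1. Scaling to the same total gave 8 higher and 3 lower, beside 50.4% and 6.67% of all genes, and Txnrd3 was at -0.17 and not called. Sesn1 was not called with quantile normalization (0.53) or without regular diet mouse 1 (0.43).

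As deposited, the glutathione peroxidases moved in different directions, Gpx1 down and the scarcer Gpx2 and Gpx3 up, while Gpx4 was not called. Gpx1, the main cytosolic peroxidase of hepatocytes, read 288490.0, 76379, 97202, 89598 and 99136 in the regular diet mice, 36579 to 98391 (median 41361) with vehicle and 66996 to 100049 (median 80915) with CLDN1 mAb. Regular diet mouse 1 was far above the next, and vehicle mouse 5 at 98391 overlapped the regular diet range. Gpx1 was called lower with vehicle (log2 fold change -1.19, SE 0.34, adjusted p = 0.00692), at -0.85 without regular diet mouse 1, but not with the same total (-0.56, adjusted p = 0.0733) or with quantile normalization (-0.18, adjusted p = 0.597).

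Gpx3, the secreted plasma peroxidase, rose from 774, 239, 119.9, 212 and 225 in the regular diet mice to 1155 to 15029 (median 7239.7) with vehicle and 2103 to 5346 (median 3678) with CLDN1 mAb (log2 fold change 4.30, SE 0.61, adjusted p = 1.5e-05, vehicle against regular diet). Vehicle mice 3, 4 and 6 read 11852, 15029 and 13002 and mice 1, 2 and 5 read 1155, 2627 and 2254, a wide spread that still lay wholly above the regular diet mice. Gpx2, an epithelial peroxidase of the gut that is a known NRF2 target, was barely detected with regular diet (12.3, 1.31, 0.88, 11 and 7.64, about 1 to 8 fragments per library) and read 59.6 to 1214 (median 183) with vehicle and 76 to 215 (median 146) with CLDN1 mAb (log2 fold change 5.13, SE 0.65, adjusted p = 4.57e-06, vehicle against regular diet). Vehicle mouse 4 was the highest at 1214, and without it the log2 fold change was 4.61. Gpx2 passed the filter through the diseased mice and had to differ, so its adjusted p adds no support. Gpx4, which protects membranes from lipid peroxides and so from ferroptosis, did not pass (log2 fold change 0.23, SE 0.23, adjusted p = 0.435); regular diet mouse 1 was at 10777 and the other 4 between 3779 and 4644, and without it Gpx4 was called higher at 0.50 (adjusted p = 0.0181). It was also called higher with the same total (0.86, adjusted p = 0.000563) and with quantile normalization (0.72, adjusted p = 0.00262).

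Catalase (Cat), the peroxisomal hydrogen peroxide scavenger, fell the most of the 37 genes on the log2 scale as deposited. It read 180096, 180364, 214213, 181159 and 202802 in the regular diet mice, 37928 to 99860.3 (median 57272) with vehicle and 65424 to 106985 (median 90346) with CLDN1 mAb. The highest diseased mouse lay far below the lowest regular diet mouse (log2 fold change -1.69, SE 0.26, adjusted p = 4e-05, vehicle against regular diet), and regular diet mouse 1 did not stand apart in this gene. Its log2 fold change was -1.06 with the same total and -0.55 with quantile normalization, where Aox1 (-0.71), Sod2 (-0.65) and Sod1 (-0.59) lay lower. Relative to Prdx1 in the same library, Cat was 1.85 to 4.71 with regular diet, 1.04 to 1.46 with vehicle and 1.41 to 2 with CLDN1 mAb. The low end of the regular diet range was mouse 1, and the regular diet median was 3.55.

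The superoxide dismutases in cytosol and mitochondria both fell. Sod1 read 64729, 23214, 24455, 24392 and 26039 in the regular diet mice and 8152 to 14710.5 (median 11886) with vehicle (log2 fold change -1.41, SE 0.26, adjusted p = 0.000245), and without regular diet mouse 1, the highest, its log2 fold change was -1.13. Sod2 read 11418, 8679.9, 9951, 8877 and 8790.2 and 3121 to 6091 (median 4529) (log2 fold change -1.11, SE 0.17, adjusted p = 3.82e-05). Neither gene's vehicle range touched the regular diet range. Both stayed called under the other scalings at smaller sizes, Sod1 at -0.78 with the same total and -0.59 with quantile normalization and Sod2 at -0.49 and -0.65. Part of the Sod2 exons is near-identical to Rps6ka2 and a noncoding gene, whose summed mean level was 247 against 6377 for Sod2. The extracellular enzyme Sod3 did not pass (log2 fold change 0.53, SE 0.36, adjusted p = 0.23). It was called higher with the same total (1.16, adjusted p = 0.0169), without regular diet mouse 1 (0.82, adjusted p = 0.045) and without vehicle mouse 1 (0.80, adjusted p = 0.0395).

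**Figure D4:**
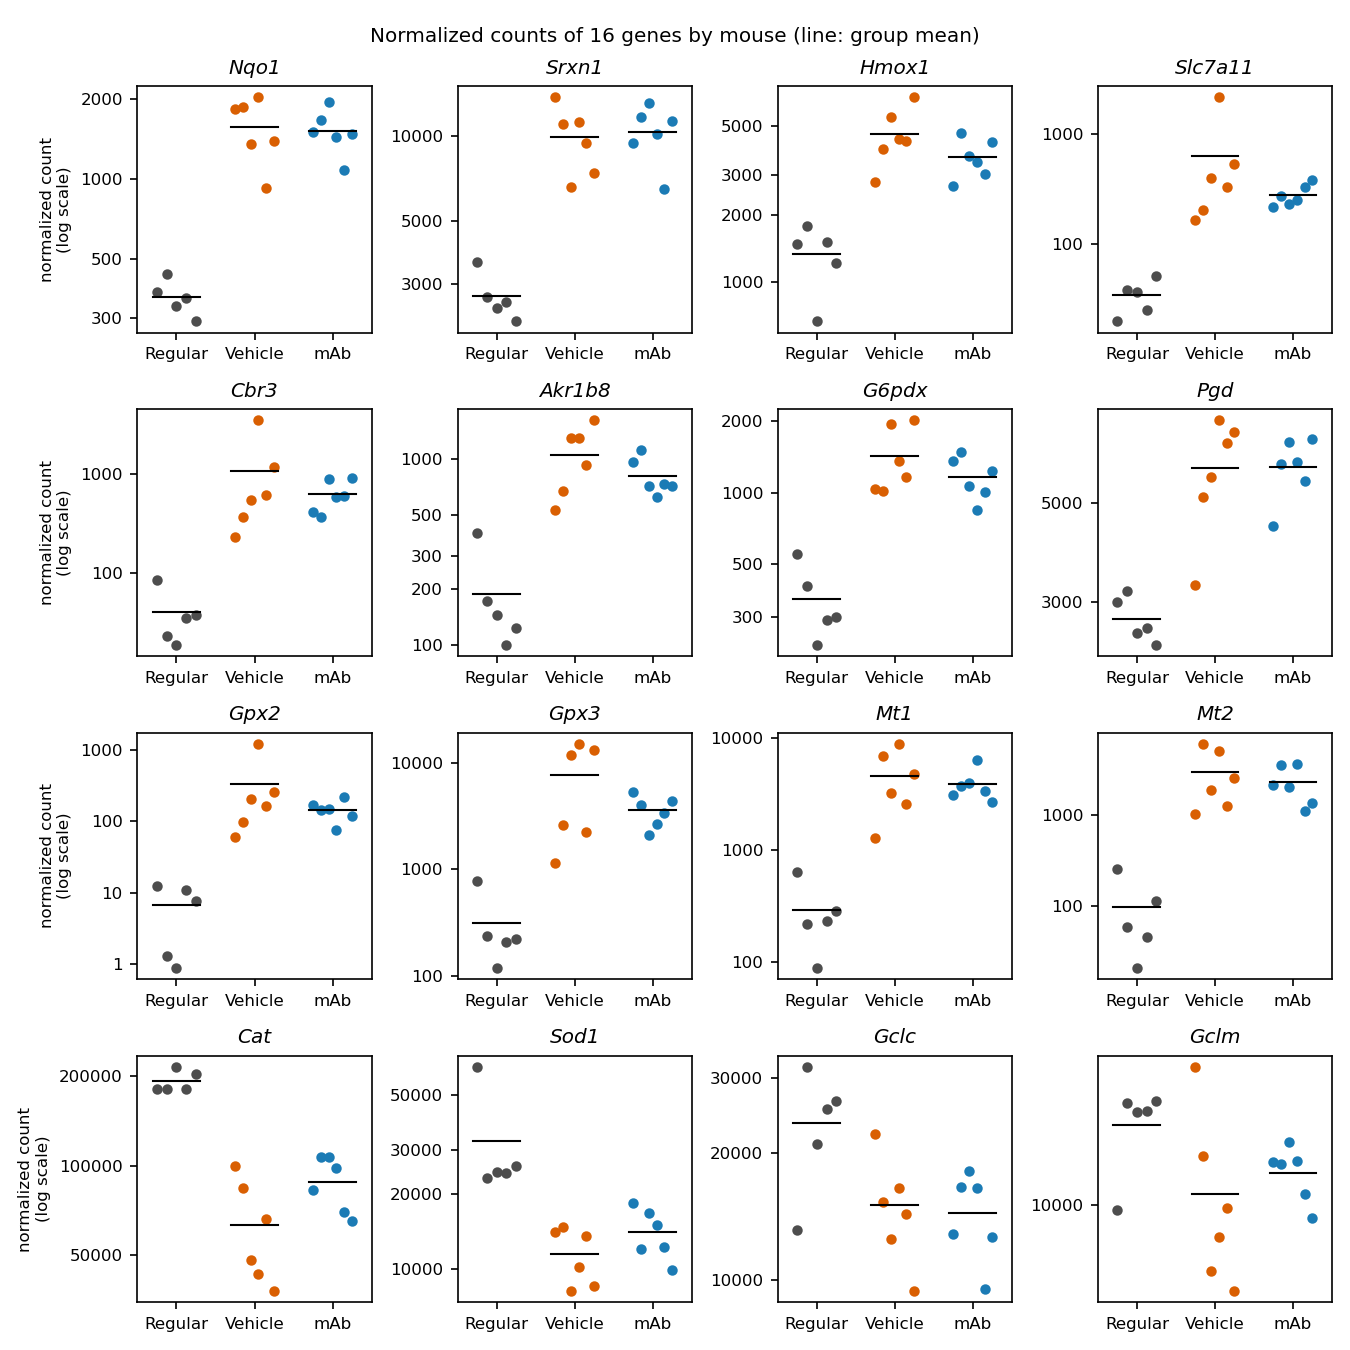
Normalized count of 16 genes in each mouse (points, log axes) with the group mean (line), for 5 regular diet, 6 vehicle and 6 CLDN1 mAb mice. The first 12 panels show genes whose diseased mice lie above all regular diet mice, Cat and Sod1 show the reverse, and the groups overlap in Gclc and Gclm.

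In the pentose phosphate pathway both NADPH-producing steps rose under every scaling tried, whereas transketolase, a carbon-rearranging step, was called under some scalings only. G6pdx, glucose-6-phosphate dehydrogenase, the entry enzyme, read 553, 403, 229, 292 and 301 in the regular diet mice, 1016 to 2009 (median 1262) with vehicle and 842 to 1483 (median 1152) with CLDN1 mAb (log2 fold change 2.01, SE 0.24, adjusted p = 1.94e-06, vehicle against regular diet). Pgd, phosphogluconate dehydrogenase, read 2987, 3168, 2545, 2613 and 2397, 3273 to 7695 (median 6283) and 4454 to 6975 (median 6169) (log2 fold change 1.08, SE 0.19, adjusted p = 0.000145). In both genes all 12 diseased mice lay above all 5 regular diet mice, although vehicle mouse 1 exceeded the highest regular diet mouse by little in Pgd (3273 against 3168). The Pgd value was 1.71 with the same total. G6pdx shares 13.6% of its exon bases with Ikbkg on the other strand.

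Transketolase (Tkt, 0.01, SE 0.16) and transaldolase (Taldo1, -0.20, SE 0.29) did not pass with vehicle as deposited. Tkt was called higher with the same total (0.63, adjusted p = 0.0123) and with quantile normalization (0.56, adjusted p = 0.0218), and Taldo1 under neither. Taldo1 was at 21041 in regular diet mouse 1 and between 5989 and 6461 in the other 4, and vehicle mouse 1 was lowest at 3859. Without regular diet mouse 1 its log2 fold change was 0.15 and not called. The G6pdx to Tkt ratio within a library was 0.0308 to 0.062 with regular diet, 0.123 to 0.257 with vehicle and 0.0943 to 0.2 with CLDN1 mAb, without overlap between regular diet and either diseased group.

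Most genes of a list of other NADPH supply genes fell. Of 9 such genes 1 rose, Rpia (log2 fold change 0.78, adjusted p = 0.000955), whose product, ribose-5-phosphate isomerase, acts in the pentose phosphate pathway without itself making NADPH, and 6 fell, which is 66.7% of the list beside 20.7% lower over all genes. Malic enzyme 1 fell most (Me1, 9505 ± 2302 with regular diet, SD, n = 5, against 1822 ± 679 with vehicle, SD, n = 6, log2 fold change -2.43, SE 0.23, adjusted p = 1.97e-07). The folate enzyme Mthfd1 (-1.88, adjusted p = 1.13e-06) and isocitrate dehydrogenase 1 (Idh1, -1.21, adjusted p = 0.000308) fell with it. Scaled to the same total 3 of the 9 rose and 3 fell, beside 50.4% and 6.67% of all genes, with Me1, Mthfd1 and Idh1 still among those called lower. Under quantile normalization the calls were 1 higher and 3 lower, beside 23.9% and 28%, with Rpia (0.32) and Idh1 (-0.40) not called.

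NADPH is also what NADPH oxidase consumes, and 8 of its 10 listed subunit and isoform genes rose, beside 29.8% of all genes. The phagocyte subunits Cybb (log2 fold change 2.95, adjusted p = 5.2e-07) and Ncf1 (2.24, adjusted p = 7.85e-07) were among them, while Nox4 fell (-0.91, adjusted p = 0.00924) but was not called with the same total (-0.29). Macrophage markers moved beside them: 8 of 9 rose, and their summed level was 7395 to 20282 with regular diet and 61011 to 161981 with vehicle. The part of macrophage number in these results was not tested. Some of these oxidase and marker genes may have passed the filter on low values only through the diseased mice. That was not checked for them, and such a gene had to differ.

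Of the 6 quinone, carbonyl and epoxide enzymes, 3 rose (50%) and 2 fell (33.3%), beside 29.8% and 20.7% of all genes. Nqo1, NAD(P)H quinone dehydrogenase 1, the most widely used NRF2 reporter gene, read 373, 438, 333, 355 and 290.3 in the regular diet mice, 928 to 2037 (median 1615) with vehicle and 1086 to 1960.2 (median 1490.1) with CLDN1 mAb. All 12 diseased mice lay above all 5 regular diet mice, and its adjusted p was the smallest of the 37 genes in both comparisons with regular diet (log2 fold change 2.10, SE 0.19, adjusted p = 1.26e-07, vehicle against regular diet). Against Gclm, another target, the ratio within a library was 0.0202 to 0.0381 with regular diet, 0.0937 to 0.228 with vehicle and 0.105 to 0.158 with CLDN1 mAb.

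Carbonyl reductase 3 (Cbr3) read 86, 23.6, 19.2, 35.8 and 38.2, then 234 to 3423 (median 579) with vehicle and 365 to 902 (median 592) with CLDN1 mAb (log2 fold change 4.27, SE 0.54, adjusted p = 3.92e-06, vehicle against regular diet), while its neighbour Cbr1 was not called (log2 fold change 0.04, SE 0.24, adjusted p = 0.91) except with the same total (0.66, adjusted p = 0.0394). Vehicle mouse 4 was the highest for Cbr3 at 3423, and without it the log2 fold change was 3.82. The aldo-keto reductase Akr1b8 read 398, 173, 145, 100.5 and 124, then 527 to 1600.5 (median 1105) with vehicle and 621 to 1108 (median 721) with CLDN1 mAb (log2 fold change 2.55, SE 0.33, adjusted p = 4.7e-06, vehicle against regular diet). Part of Akr1b8 is near-identical to Akr1b10, whose mean level was 375 against 711.

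Aldehyde oxidase 1 (Aox1), a hepatocyte drug-metabolizing enzyme, fell from 8462 ± 1815 (SD, n = 5) to 3959 ± 1251 (SD, n = 6; log2 fold change -1.12, SE 0.21, adjusted p = 0.000274), and with the same total it was at -0.50 and not called (adjusted p = 0.0676), while with quantile normalization it was called at -0.71. Microsomal epoxide hydrolase (Ephx1) fell from 30512 ± 9445 (SD, n = 5) to 18694 ± 3516 (SD, n = 6; log2 fold change -0.68, SE 0.20, adjusted p = 0.00965), and this too was lost with the same total (-0.06) and with quantile normalization (0.22). In each gene 1 vehicle mouse overlapped the regular diet range, mouse 1 in Aox1 and mouse 2 in Ephx1.

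Haem oxygenase 1 (Hmox1), which degrades haem to biliverdin, iron and carbon monoxide and is strongly expressed by macrophages, read 1476, 1776, 669.5, 1518 and 1224 in the regular diet mice, 2807 to 6694 (median 4313) with vehicle and 2677 to 4620.5 (median 3554) with CLDN1 mAb. The regular diet mice all lay below the diseased mice (log2 fold change 1.81, SE 0.24, adjusted p = 8.49e-06, vehicle against regular diet). Osgin1, an oxidative stress-induced growth inhibitor, did not pass (log2 fold change -0.03, SE 0.39, adjusted p = 0.96) and varied widely, with regular diet mouse 1 at 52475 and the other 4 between 9821 and 17415. Without that mouse its log2 fold change was 0.36 and not called.

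Both metallothioneins rose strongly. Mt1 read 644, 219, 88.4, 234 and 289 in the regular diet mice, 1295 to 8981 (median 4061) with vehicle and 2714 to 6376 (median 3571) with CLDN1 mAb (log2 fold change 3.99, SE 0.47, adjusted p = 1.86e-06, vehicle against regular diet). Mt2 read 258, 59.1, 21, 45.4 and 113, 1036 to 6107 (median 2250.2) and 1125 to 3614 (median 2115) (log2 fold change 5.09, SE 0.57, adjusted p = 9.87e-07). In both genes every diseased mouse exceeded every regular diet mouse. Regular diet mouse 1 was the highest of its group in both, and without it the log2 fold changes were 4.34 for Mt1 and 5.55 for Mt2. The Mt1 to Mt2 ratio within a library was 2.5 to 5.15 with regular diet, 1.15 to 2.05 with vehicle and 1.06 to 3 with CLDN1 mAb, and the last range overlapped both others. The antisense transcript Gm45774 covers 73.5% of the Mt2 exon bases, and since use of strand is not given in the sources used here, reads of the pair cannot be told apart. The metal sensor Mtf1 fell (log2 fold change -0.70, adjusted p = 0.00102), as did the zinc and manganese exporter Slc30a10 (-3.85, adjusted p = 2.57e-06), and no gene of the 5 tested in the zinc and metal response list rose as deposited. The zinc importer Slc39a4 was called higher without regular diet mouse 1 (0.50, adjusted p = 0.0318), with the same total (0.80, adjusted p = 0.00923) and after quantile normalization (0.58, adjusted p = 0.0437). Mtf1, with the same total, was at -0.07 and not called; Mt3 and Mt4 did not pass the filter.

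Markers of cell types moved with these groups, and their part in the results was not tested. Passage of the filter on low values through the diseased mice alone was not checked for markers, and such a marker had to differ. All 9 hepatocyte markers tested fell (7 with the same total and 4 with quantile normalization), with summed levels of 1490838 to 3665811 with regular diet, 319203 to 1140625 with vehicle and 730650.1 to 1306914 with CLDN1 mAb. All 6 markers of lipid-associated macrophages rose (2802 to 5226, 56357 to 238780.4 and 64435 to 111746 in the same order), all 6 of cholangiocytes (492 to 1132, 2954 to 8076 and 2639 to 7685), 6 of 8 of stellate cells and fibroblasts (11838 to 18717, 31408 to 126538 and 26579.6 to 87839), 3 of 4 of T cells (122 to 504, 371 to 895 and 297 to 786) and all 3 tested of neutrophils (38.5 to 477, 378 to 2014 and 342 to 734). Kupffer cell markers fell in 4 of 6, red cell markers in 2 of 3 and endothelial markers in 2 of 5 (0 with the same total), and none of 3 B cell markers passed (2 higher with the same total). Of 3 adipocyte markers the 1 tested fell, and of 3 pancreatic acinar markers the 1 tested did not pass. Vehicle mouse 4 had the highest neutrophil and red cell sums of its group. Vehicle mouse 1 had the lowest sums of macrophage, lipid-associated macrophage, cholangiocyte and stellate cell markers, and it was the lowest vehicle mouse for 17 of the 37 genes, among them Slc7a11, Ggt1, Gpx2, Gpx3, Cbr3, Akr1b8, Hmox1, Mt1 and Mt2, and the highest for 9, among them Nfe2l2, Gclc, Gclm, Srxn1 and Cat.

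Per kilobase of exon, which allows genes to be compared, Gpx1 was the most abundant of the 37 in regular diet mice at 90327 normalized counts per kb, followed by Cat at 73374, Prdx1 at 19163 and Ephx1 at 15647. The order of the first pair rests on mouse 1: without it Cat was at 74487 and Gpx1 at 62859 per kb, and by the group median Cat also came first (69329.9 against 67455). Ggt1 (1.88), Gpx2 (2.06) and Slc7a11 (2.44) were the least abundant. With vehicle Gpx1 and Cat were still at the top, at 37429.7 and 24201 per kb. Mt2 moved from 169 to 5088 per kb and Gpx3 from 173 to 4221, above the levels of Gclm at 1648 and Txnrd1 at 1045.

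CLDN1 mAb against vehicle asks whether the antibody altered this programme in diseased mice. None of the 37 genes passed (limma-trend, 0% of all 18624 genes called), and the counts at an unadjusted p under 0.05 were 2 of the 37 and 1391 of all genes, or 7.47%. Log2 fold changes ran from -1.26 for Ggt1 to 0.71 for Gpx1, 22 above 0 and 15 below, with a median of 0.08 beside -0.05 over all genes. With the same total in every library the 2 medians were -0.11 and -0.23, and with quantile normalization, where the 37 lay below all genes, -0.13 and -0.01. No member's ranges were separate, beside 0.0644% of all genes wholly higher and 0.258% wholly lower. The smallest p-values belonged to genes with lower levels in vehicle than in regular diet mice, Gpx1 (log2 fold change 0.71, SE 0.32, adjusted p = 0.659) and Cat (log2 fold change 0.54, SE 0.25, adjusted p = 0.659). This comparison and the first share the vehicle libraries. Low values in those libraries alone would give both a fall with vehicle and a higher CLDN1 mAb level, so opposite signs are not separate evidence.

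Cat averaged 88296 ± 18315 (SD, n = 6) with CLDN1 mAb and 63238 ± 24648 with vehicle (SD, n = 6), beside 191727 ± 15846 (SD, n = 5) with regular diet. The log2 fold changes of Sod2, Aox1, Prdx6 and Keap1 were 0.34 (SE 0.16), 0.40 (SE 0.20), 0.39 (SE 0.22) and 0.26 (SE 0.13), and each had an adjusted p of 0.659 or more. Nqo1 (-0.02, SE 0.18), Srxn1 (0.08, SE 0.20), Pgd (0.05, SE 0.18) and Mt1 (-0.05, SE 0.45) had values near 0. The differences in Ggt1 (-1.26, SE 0.67) and Slc7a11 (-0.59, SE 0.45) rest in part on vehicle mouse 4, without which Ggt1 was at -0.53. Hepatocyte marker sums had a higher median with CLDN1 mAb than with vehicle (1080310.1 against 686773), and 0 of 9 hepatocyte markers passed. None of the 86 pathway genes tested passed in this comparison.

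CLDN1 mAb against regular diet shares the regular diet libraries with the first comparison, so its values are given beside that one and are not a second measurement. It called 14 genes higher and 6 lower, where 38.9% of all genes were called, 24.8% higher and 14.1% lower. With the same total it called 19 higher and 3 lower (37.9% and 4.39% of all genes), and with quantile normalization 19 and 2 (19.1% and 20%). Without Ggt1 and Gpx2 the count as deposited was 12 of 35 higher. At least 2-fold were 13 risers (11 without Ggt1 and Gpx2) and 2 of those lower, beside 19.8% and 5.88% of all genes. Of the 37 genes, 13 had every CLDN1 mAb mouse above every regular diet mouse and 4 had every one below, beside 18.6% and 10.4% of all genes. All 13 were risers, with Ggt1 and Gpx2 among them. Nqo1 (log2 fold change 2.08, SE 0.19, adjusted p = 2.02e-07), Srxn1 (1.91), G6pdx (1.75), Pgd (1.13), Hmox1 (1.49), Gpx3 (3.77), Mt1 (3.94) and Mt2 (4.89) were among the risers on the log2 scale. Nfe2l2 (0.34, adjusted p = 0.0742) did not pass and Gss (0.60, adjusted p = 0.0375) did. Nfe2l2 was called higher in 4 of 29 alternatives, with the same total (0.78, adjusted p = 0.00471), after quantile normalization (0.58, adjusted p = 0.00685), without regular diet mouse 5 (0.41, adjusted p = 0.0464) and without vehicle mouse 1 (0.34, adjusted p = 0.0452). Sqstm1, Gpx4, Tkt and Txn1 were called higher with the same total (0.61, 0.92, 0.59 and 0.50) and with quantile normalization (0.78, 0.79, 0.50 and 0.50). Gpx4 was also called higher without regular diet mouse 1 (0.74, adjusted p = 0.00167). Cat (-1.14, adjusted p = 0.00212), Sod1 (-1.11, adjusted p = 0.00266), Sod2 (-0.77, adjusted p = 0.00166), Prdx6 (-0.72, adjusted p = 0.018), Aox1 (-0.72, adjusted p = 0.0115) and Gclc (-0.69, adjusted p = 0.034) were lower. Of the 6 lower genes Sod1 and Sod2 kept the call in every alternative, as did 12 of the 14 risers, among them Gpx2, which had to differ. Cat lost it with quantile normalization (-0.31, adjusted p = 0.117). Gss lost it in 9 of 29, among them without any 1 of regular diet mice 2 to 5 or of CLDN1 mAb mice 1, 3 and 4, and Ggt1 lost it with a pseudocount of 10 or with quantile normalization. Gclc lost it in 11 of 29, among them without any 1 of regular diet mice 2 to 5 or of CLDN1 mAb mice 1, 5 and 6. In the pathway lists the antibody group had 8 of 10 NADPH oxidase genes higher, among them Cybb (2.79), and 5 of 9 NADPH supply genes lower (2 with the same total or with quantile normalization), led by Me1 (-2.97). Passage of the filter through the diseased mice alone was not checked for the pathway lists.

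How 6 NRF2 target genes vary together was asked across the 12 diseased mice, over 15 pairs of Nqo1, Gclc, Gclm, Txnrd1, Srxn1 and Slc7a11 (log2 values, 100000 permutations, Benjamini-Hochberg over the 15 pairs). Gclc and Srxn1 rose and fell together (Pearson r = 0.86, adjusted permutation p = 0.00405; Spearman rho = 0.867, adjusted permutation p = 0.003675), and this was the 1 pair to pass by Pearson r. Within the vehicle mice r was 0.88 and within the CLDN1 mAb mice 0.872 (exact permutation p = 0.0194 and 0.0208, n = 6 each, unadjusted), and without the 2 mice farthest from the median of Gclc it was 0.748. The values share library size and scaling, and with the same total r was 0.777.

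Gclm and Slc7a11 ran in opposite directions by rank (rho = -0.944, adjusted permutation p = 0.0003), while Pearson r was -0.665 (adjusted permutation p = 0.0635), and vehicle mouse 4 had the highest Slc7a11 at a low Gclm value of 8948. Without the 2 mice farthest from the median of Gclm r was -0.641. Within the CLDN1 mAb mice r was -0.929 (exact permutation p = 0.0111, n = 6) and within the vehicle mice -0.613 (exact permutation p = 0.200, n = 6). With the same total in every library r was -0.384, and rho was not computed under other scalings. By rank 3 further pairs passed, Nqo1 with Gclc, Nqo1 with Srxn1 and Gclc with Gclm (adjusted permutation p = 0.0368 for each). None of these 3 passed by Pearson r (adjusted permutation p = 0.0957, 0.0635 and 0.0539 in that order). Their r with the same total was 0.529, 0.613 and 0.503.

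**Figure D5:**
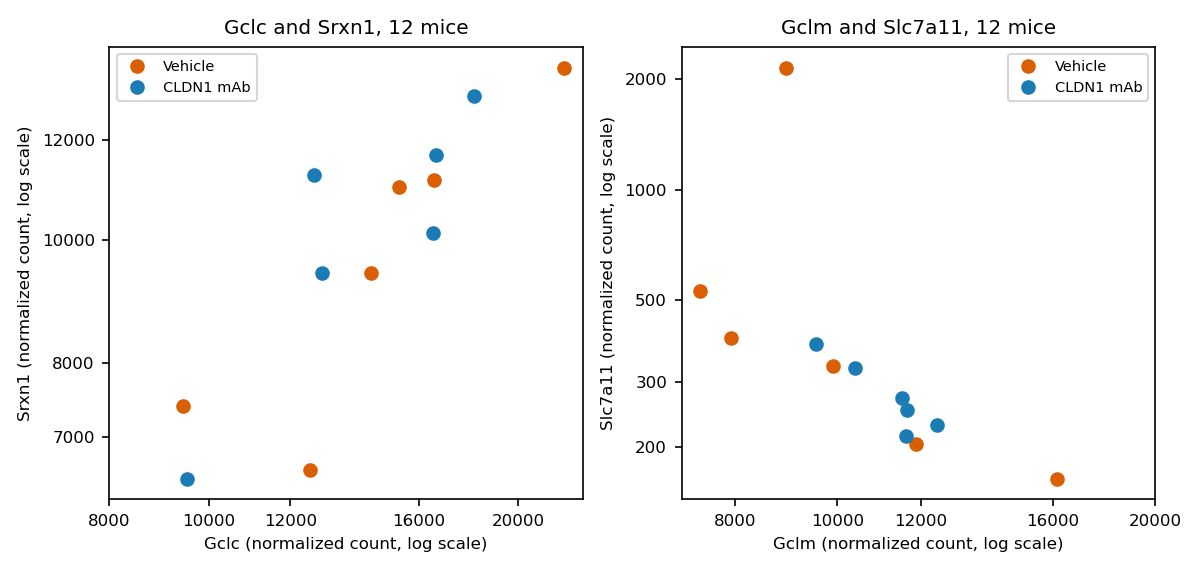
Normalized counts of Gclc against Srxn1 (left) and of Gclm against Slc7a11 (right) in the 12 diseased mice, log axes, with vehicle and CLDN1 mAb mice in different colours. The left points rise together; the right points fall from left to right and vehicle mouse 4 stands highest at a Slc7a11 value of 2153.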

How the data were processed

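Liver RNA-seq values of 17 mice were used as deposited. The authors deposited 1 table of normalized counts (a normalized signal per gene, not raw read counts), made with cuffnorm of Cufflinks 2.2.1 on build mm10, per the submitters' processing notes and the labels. The aligner, annotation release, use of strand and scaling option are not given in the sources used here. Of low values (up to 20 steps), 97.8 to 98.3% per library lay within 0.05 of a step from a whole multiple of 1 step, but other values near 0 were not, so no count model was run and depth is an estimate from that step. Symbols were found for 99.7% of 52545 identifiers, and 17421 genes were at 0 in all libraries. No column was left unmapped.

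Groups came from the labels. Values were tested as log2(normalized count + 1) with limma-trend (limma 3.58.1, R 4.3.3) in 1 fit over all 17 libraries, two-sided, with Benjamini-Hochberg adjustment over the 18624 genes at 10 or more in at least 5 libraries and a threshold of 0.05. Fold changes on this scale understate the change of low genes. The labels number the mice within a group, and p-values reflect the scatter among these 17 animals, whose separate handling is not described. The members and all gene and marker lists were chosen with earlier results of these data known. Passage of the filter through the diseased mice alone was checked for the members only, so calls in the other lists can include genes that had to differ. All 37 members are named, and of each pathway list up to 3 genes called in each direction with the smallest p, except 1 gene that is not reported here. Exon lengths, overlaps and coordinates are from the GENCODE annotation of GRCm38, copies from blastn 2.17.0 (95% identity or more over 200 bases or more), and promoters from RefSeq. The fit was also run on simulated data, and the share of changes it recovered is not given here. The counts of pathway and marker lists under other scalings were added after seeing the data. Alternatives were the pseudocount, filter, scaling, fit, replicate block and each library left out. The marker symbol Tf matched no row.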

Additional observations from a re-analysis of the deposited data

Results flagged for a closer look

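In 111 groups of values (37 genes in 3 groups), 24 had an end value far from the rest of its group, in 21 genes, where chance gives about 1 in 20 groups. Regular diet mouse 1 accounted for 16. It was the highest of 5 for Keap1 (4314), Txn1 (23402), Prdx1 (97438), Prdx2 (13167), Gpx1 (288490.0), Gpx3 (774), Gpx4 (10777), Sod1 (64729), Sod3 (3633), Taldo1 (21041), Cbr3 (86.0), Ephx1 (47108), Akr1b8 (398) and Osgin1 (52475), and the lowest for Gclm (9807) and Txnrd1 (5346), all in normalized counts. The same library had the highest deposited total, 74.6 M, and the excess of short genes described in the report.

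Vehicle mouse 4 was the highest of 6 for Slc7a11 (2153), Ggt1 (1087), Gpx2 (1214) and Cbr3 (3423). Vehicle mouse 1 was the highest for Nfe2l2 (8240) and the lowest for Taldo1 (3859). In the CLDN1 mAb group mouse 3 was the highest for Gpx4 (10355) and mouse 4 for Mt1 (6376).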

How the results depend on the processing

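Scaling and 1 regular diet library are the main limits. Results that reversed were Keap1 0.05, Txn1 0.60, Prdx1 0.35 and Prdx2 0.43 with the same total per library, and Gclc 0.18, Txn1 0.64, Prdx1 0.69 and Ephx1 0.22 with quantile normalization (vehicle against regular diet), and Prdx1 0.45 with quantile normalization (CLDN1 mAb against regular diet); beyond the scaling itself the cause was not tested. Genes that passed under neither setting changed sign in 40, 49 and 34 cases in vehicle against regular diet, CLDN1 mAb against vehicle and CLDN1 mAb against regular diet. Of all tests of CLDN1 mAb against vehicle, the fit without a filter alone called genes, 2 of them. Pairs of the 6 target genes called by Pearson r were 1 as deposited, 3 with median-of-ratios size factors, 0 within vehicle mice, 0 within CLDN1 mAb mice and 0 without the 2 mice farthest from the median, where fewer mice were tested. Leaving out 1 library at a time gave 8430 to 10649 genes and 22 to 28 members called with vehicle against regular diet, 6316 to 8997 and 18 to 21 with CLDN1 mAb against regular diet, and 0 with CLDN1 mAb against vehicle. The replicate block gave 9188, 6971 and 0 genes and 22, 19 and 0 members called (vehicle against regular diet, CLDN1 mAb against regular diet, CLDN1 mAb against vehicle); Gclc lost both calls. Same-numbered mice correlated between -0.344 and 0.656, and 2 of 16 correlated best with their own number. With so few libraries per group, this cannot decide whether the numbers pair mice. Library codes separate regular diet mice from the rest, so any difference tied to the codes cannot be told apart from the treatments in comparisons with regular diet. With the code as a term 0 genes passed between CLDN1 mAb and vehicle. Depth limits Ggt1 and Gpx2 most, which rested on at most 8 estimated fragments in each regular diet library.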
